A study of Mus musculus with 32 samples.

Results

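The array carried 74 gene symbols that begin with Ube2, or with Usp followed by a digit, of 18138 symbols in all. Of these, 30 are Ube2 genes, which encode ubiquitin-conjugating (E2) enzymes and related proteins, and 44 are Usp genes, which encode ubiquitin-specific proteases (USP), the largest family of deubiquitinases. They were taken in by name alone, under a rule chosen with earlier results of these data known. They were read by 117 of the 25697 probes, 45 for E2 genes and 72 for USP genes. A RefSeq gene was found for 73 of the 74 symbols, and 3 of them now carry another symbol, namely Ube2d2 (now Ube2d2a), Ube2dnl (now Ube2dnl1) and Usp52 (now Pan2). The name pattern also takes in 3 genes whose proteins are not deubiquitinases. Usp6nl encodes a GTPase-activating protein of Rab proteins, Usp39 a splicing factor, and Usp52 a subunit of an enzyme that shortens poly(A) tails. These 3 genes gave 9 of the 39 USP probes tested, and the USP medians are also given without them.

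Ubiquitin is a small protein that marks other proteins for degradation or changes where they go and what they bind. An E1 enzyme activates ubiquitin, an E2 enzyme accepts it and, with an E3 ligase that holds the substrate, passes it on, and a deubiquitinase removes it again. In neurons this cycle controls the turnover of receptors and scaffold proteins at synapses and the supply of free ubiquitin.

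Total RNA from the frontal cortex (FCtx) of 32 female F1 hybrid mice, C57BL/6J x FVB/NJ by the labels, was labelled and hybridized to Illumina MouseRef-8 v2.0 arrays, 1 mouse to an array. Ethanol-treated mice (n = 20) could choose between water and 20% ethanol for 3 h a day over 20 days, so each animal set its own intake, and the controls (n = 12) carry the same strain label and the treatment label control. The study used reciprocal crosses of both strains, and the direction of the cross of each mouse is not known here. The arrays lay on 4 chips of 8. Chips 1 and 2 held ethanol-treated mice, chip 4 held controls, and chip 3 held 4 of each, with the ethanol-treated mice at its odd positions (A, C, E and G) and the controls at its even positions (B, D, F and H). Treatment and chip therefore cannot be told apart between chips 1 and 2 and chip 4, and treatment and odd or even position cannot be told apart on chip 3. The RNA came from whole tissue, in which fewer cells of a type and less RNA per cell cannot be told apart. Nothing in the labels ties arrays to extraction batches. The mice are the replicates, and p-values measure the spread between their arrays. Where chips are compared, the p-values measure the spread between mice of 1 group on 1 chip. They do not cover differences between chips.

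Values below are log2 levels after a variance-stabilizing transform and quantile normalization of the bead signals, and differences are differences of log2 levels, ethanol minus control unless another direction is given. The median bead signal of an array ranged from 166 to 203 in ethanol-treated mice and from 146 to 187 in controls, with the 8 arrays of chip 4 at 146 to 168. A probe was tested when its detection p-value was below 0.01 on at least 24 of the 32 arrays. This held for 10187 probes in all. As a check of the tissue, neuronal markers had mean levels between 12.01 and 12.24 on all arrays (7 of 10 genes tested), and astrocyte markers between 9.79 and 10.06 (9 of 10). Other lists varied more between arrays. Oligodendrocyte markers lay between 9.41 and 10.46 (10 of 10), and olfactory bulb markers between 8.41 and 9.69 (4 of 8).

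The sequences of the probes on which the results turn are shown first, because 3 of the genes were read by several probes that did not always move together. The first 30 bases of each 50-base probe are given 5′ to 3′, and capitals mark bases that lie in a run shared with another tested probe of the same gene. The deposited annotation places Ube2n on chromosome 10, Ube2f on chromosome 1, Usp8 on chromosome 2, Usp46 on chromosome 5, Usp19 on chromosome 9 and Usp5 on chromosome 6, without naming a genome build.
Ube2d3: actgcttatatttacgtgcaatcttattcc
Ube2n, brighter probe: gacctcagtggtgtcatgtggacagttggt
Ube2n, dimmer probe: gatctgtgttaggattctactgagtgagta
Ube2f, brightest probe: ctcttagcttcttccacgaatgttGACCCT
Ube2f, middle probe: GACCCTACCTAGATGTGAAGCTTCCCagaa
Ube2f, dimmest probe: ctcaaaggatcccggacatcagcctccaca
Usp7: gccacaacctggtaacatgtctcatcctcg
Usp8, brighter probe: GCTGAGATTTCGAGGCTTTCTGCTTCTCAG
Usp8, dimmer probe: aGCTGAGATTTCGAGGCTTTCTGCTTCTCA
Usp46: aacagctccacaggtacaccaagctgtctt
Usp22: tctcaccacagggctgcattgcctacccct
Usp19: ccgtggcggctttggtggcccttgtgctca
Usp5: gggacggctgagggatggacttcagcccct
The Usp8 probes share 49 bases and so are close to a repeat of 1 measurement, 2 of the 3 Ube2f probes share 26 bases, and the 2 Ube2n probes share none.

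Of the 117 probes, 66 passed the detection filter, 27 of 18 E2 genes and 39 of 28 USP genes. The filter asks for detection on 75% of arrays, so a gene high in 1 group alone could fail it. Of the 12 E2 genes without a tested probe, 7 were detected on no array, namely Ube2c, Ube2d1, Ube2dnl, Ube2r2, Ube2t, Ube2u and Ube2v2. Ube2c and Ube2t are best known from dividing cells, and Ube2v2 encodes an inactive partner of Ube2n. Others were detected by their best probe on 8 arrays (Ube2z), 5 arrays (Ube2g2), 4 arrays (Ube2l6, the E2 of the modifier ISG15) and 1 array (Ube2s). Ube2v1, the better known partner of Ube2n, was not among the symbols in the table.

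Among the USP genes, 16 had no tested probe. Of these, 10 were detected on no array (Usp15, Usp17, Usp27x, Usp37, Usp43, Usp44, Usp45, Usp49, Usp50 and Usp9y). The best probe of Usp13 and of Usp9x was detected on 6 arrays, of Usp25 on 5, of Usp48 on 4, of Usp18, which removes ISG15, on 2, and of Usp26 on 1. For all 28 untested genes no difference between groups is given, and a probe that is not detected says nothing about whether the gene is expressed.

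Whether ethanol drinking went with a difference in these enzymes was asked first over all 32 arrays. Ube2d2, a broadly acting E2 that works with many RING-type E3 ligases, was higher in ethanol-treated mice and was the only member called at a false discovery rate (FDR) below 1%. Its level ranged from 10.52 to 10.89 (median 10.71) in ethanol-treated mice and from 10.37 to 10.76 (median 10.5) in controls. All 20 ethanol-treated mice lay above the control median and 6 lay above every control, so the groups overlapped. The difference was 0.17 (SE 0.042, limma, adjusted p = 0.00372). The call was lost when arrays were scaled to 1 median in place of quantile normalization (0.25, adjusted p = 0.0533) and with chip as a random block (0.13, adjusted p = 0.109).

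Across all probes tested, 8.25% passed this threshold, so 1 of 66 member probes is a smaller share than in the array as a whole. No USP probe passed by limma at an FDR below 1%, although 9 of the 39 had an unadjusted p below 0.05 (8 of 30 without Usp6nl, Usp39 and Usp52), as did 7 of the 27 E2 probes. At a wider threshold, which asked for an FDR under 10% and a fold change of 1.1 or more, 5 member probes were called, where 14.4% of all probes were. All 5 were higher in ethanol-treated mice. Beside Ube2d2 they were Ube2d3, a close relative of Ube2d2, with a difference of 0.16 (SE 0.057, limma, adjusted p = 0.0541), and Ube2o, a large E2 that can act without a separate E3, with 0.22 (SE 0.061, limma, adjusted p = 0.0124). The others were Usp2, which acts on clock proteins, cyclin D1 and membrane receptors, with 0.23 (SE 0.097, limma, adjusted p = 0.0908), and Usp52, which is not a deubiquitinase, with 0.14 (SE 0.049, limma, adjusted p = 0.0354). Members under an FDR of 10% but short of 1.1-fold lay on both sides of 0. Lower were, among others, Usp19 (-0.12, limma, adjusted p = 0.0327), the brightest probe of Ube2f (-0.11, limma, adjusted p = 0.0634) and Usp5 (-0.11, limma, adjusted p = 0.0958). Higher were, among others, Usp7 (0.13, limma, adjusted p = 0.0903) and Usp46 (0.10, limma, adjusted p = 0.0832).

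As lists, neither family moved to 1 side. The median difference was 0.018 over the 27 E2 probes, of which 16 were above 0, and 0.0017 over the 39 USP probes, of which 21 were above 0. The same median over all probes tested was -0.0032. Without Usp6nl, Usp39 and Usp52 the USP median was 0.0074 over 30 probes. The members also varied as much between mice as other genes did, since the median SD within a group was 0.12 for E2 probes, 0.11 for USP probes and 0.12 over all probes tested.

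**Figure D1:**
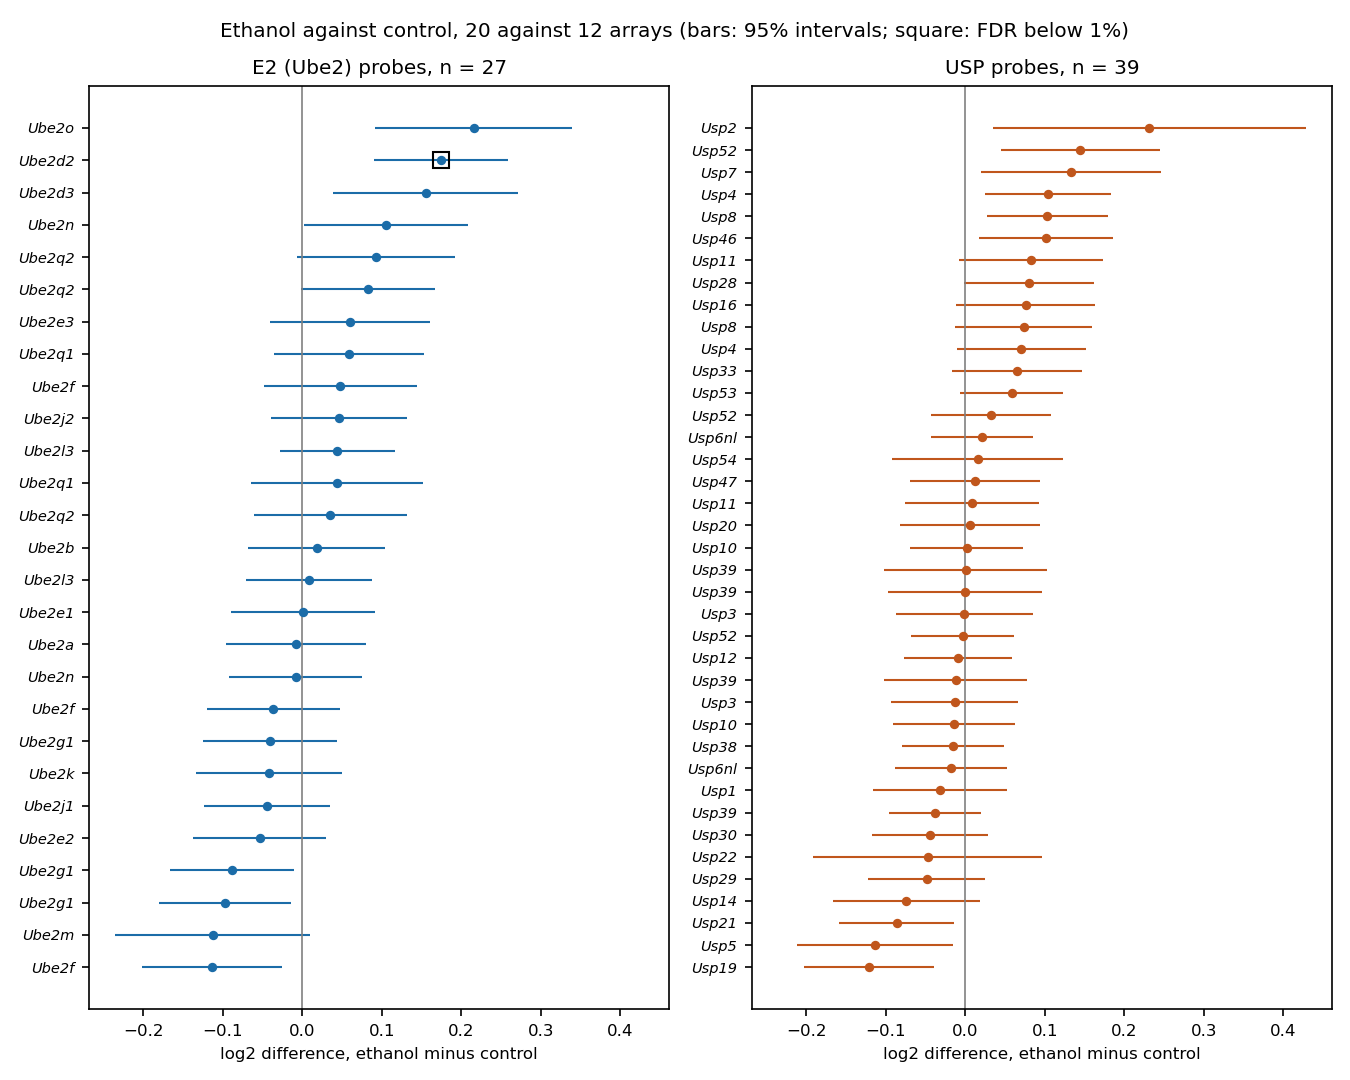
Difference of log2 level between ethanol-treated mice (n = 20) and controls (n = 12) for each of the 27 E2 probes and 39 USP probes tested, ordered by size, with 95% intervals as bars and 1 row for each probe of a gene. Ube2d2, with a square, is the only probe at an FDR below 1%, and both families spread to both sides of 0.

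By role, the E2 enzymes that act broadly with RING-type ligases held both the called member and Ube2d3, while the 3 Ube2e genes of the same role lay between -0.054 (Ube2e2) and 0.060 (Ube2e3). The RAD6-type enzymes, which ubiquitinate histone H2B and proliferating cell nuclear antigen, differed by -0.0081 (Ube2a) and 0.018 (Ube2b). Those that build K48-linked chains or serve the endoplasmic reticulum gave 6 probes of 4 genes, with 5 differences below 0 and a range from -0.097 (a probe of Ube2g1) to 0.046 (Ube2j2). Among them Ube2k, which extends K48-linked chains, differed by -0.042 (SE 0.045, limma, adjusted p = 0.563). The enzymes of ubiquitin-like modifiers both serve NEDD8. Ube2m differed by -0.11 (SE 0.060, limma, adjusted p = 0.194), and the brightest probe of Ube2f by -0.11 (SE 0.044, limma, adjusted p = 0.0634). Ube2l3, which serves HECT and RBR ligases such as parkin, gave 0.044 and 0.0084 with its 2 probes.

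Among the USP enzymes, those that dismantle free ubiquitin chains or sit on the proteasome were both lower without passing the 1% threshold. Usp5, which recycles unanchored chains, differed by -0.11 (SE 0.048, limma, adjusted p = 0.0958) and Usp14, a deubiquitinase of the proteasome that is needed for synaptic function in mice, by -0.074 (SE 0.046, limma, adjusted p = 0.265). The partners of the activator WDR48 differed by -0.031 (Usp1), -0.0090 (Usp12) and 0.10 (Usp46), the last of which acts on AMPA-type glutamate receptors. The 6 probes of 5 chromatin enzymes ranged from -0.086 (Usp21, of histone H2A) to 0.13 (Usp7, which acts on MDM2 and many nuclear proteins). Those of endosomes, receptors and membranes ranged from -0.12 (Usp19, an enzyme of the endoplasmic reticulum) to 0.23 (Usp2), with Usp30, which opposes mitophagy at mitochondria, at -0.045 (SE 0.036, limma, adjusted p = 0.413).

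The same members were then followed chip by chip, since 24 of the 32 arrays lie on chips of 1 group. Ethanol-treated mice of chips 1 and 2 against controls of chip 4 gave 8 member probes of 7 genes at an FDR below 1%, where 15.2% of all probes passed. Higher were 7 probes, of Ube2d2, Ube2d3, Ube2n, Usp7, Usp46 and both of Usp8, where 7.6% of all probes were higher, and lower was 1 probe, of Ube2f, where 7.65% of all probes were lower. As a share of members these 8 probes are 12.1%, so the families did not stand out from the array here either. The levels of the genes higher there are given next beside those on chip 3.

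Ube2d2 had levels of 10.76, 10.57, 10.6 and 10.73 in the 4 ethanol-treated mice of chip 3 and of 10.76, 10.73, 10.71 and 10.54 in its 4 controls. The 8 controls of chip 4 lay lower, from 10.37 to 10.59 with a median of 10.44, and the ethanol-treated mice of chips 1 and 2 from 10.52 to 10.89. The controls of chip 3 thus fell within the range of the ethanol-treated mice, and all but 1 lay above every control of chip 4. The difference was 0.26 between chips 1 and 2 and chip 4 (SE 0.043, limma, adjusted p = 3.01e-05) and -0.017 on chip 3 (95% interval -0.16 to 0.12).

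Ube2d3 had levels of 9.15, 9.35, 9.50 and 9.33 in the ethanol-treated mice of chip 3 and of 9.54, 9.33, 9.47 and 9.38 in its controls. On chip 4 controls ranged from 8.97 to 9.32 with a median of 9.14, below all 4 controls of chip 3. Its difference was 0.27 between chips 1 and 2 and chip 4 (SE 0.055, limma, adjusted p = 0.000437) and -0.097 on chip 3 (95% interval -0.28 to 0.085).

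Ube2n, which builds K63-linked chains used in signalling and DNA repair, had levels of 11.13, 11.23, 11.26 and 11.2 with its brighter probe in the ethanol-treated mice of chip 3. Its controls there were at 11.19, 11.35, 11.44 and 11.36, and the controls of chip 4 ranged from 10.89 to 11.33 with a median of 11.02. Only 1 control of chip 4 (11.33) reached the levels of chip 3, the next being at 11.09. The difference was 0.21 between chips 1 and 2 and chip 4 (SE 0.050, limma, adjusted p = 0.00171) and -0.13 on chip 3 (95% interval -0.29 to 0.038). The dimmer Ube2n probe, which shares no bases with the first, gave -0.041 and 0.048, and the 2 probes correlated at r = -0.179 over the 32 arrays, so the pattern of Ube2n rests on 1 probe.

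Usp7 had levels of 8.81, 8.78, 8.83 and 8.82 in the ethanol-treated mice of chip 3, a narrow range inside that of its controls there, at 8.772, 9.004, 9.077 and 8.843. Controls of chip 4 ranged from 8.29 to 8.79 with a median of 8.61. The difference was 0.25 between chips 1 and 2 and chip 4 (SE 0.055, limma, adjusted p = 0.00089) and -0.12 on chip 3 (95% interval -0.30 to 0.067).

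Usp8, which removes ubiquitin from receptors at endosomes, had levels of 7.92, 7.85, 7.84 and 7.83 with its brighter probe in the ethanol-treated mice of chip 3. All 4 controls of that chip were above these, at 7.978, 7.997, 8.056 and 7.972. Controls of chip 4 were below the controls of chip 3 without overlap, from 7.61 to 7.91. The difference was 0.17 between chips 1 and 2 and chip 4 (SE 0.041, limma, adjusted p = 0.00263) and -0.14 on chip 3 (95% interval -0.28 to -0.0040, limma, adjusted p = 0.241). The dimmer probe, which shares 49 bases with it, gave 0.17 and -0.023.

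Usp46 had levels of 7.79, 7.80, 7.87 and 7.76 in the ethanol-treated mice of chip 3 and of 7.97, 7.98, 7.89 and 7.91 in its controls, again without overlap and with the controls higher. The controls of chip 4 were the lowest group, from 7.57 to 7.77. The difference was 0.21 between chips 1 and 2 and chip 4 (SE 0.036, limma, adjusted p = 7.84e-05) and -0.13 on chip 3 (95% interval -0.25 to -0.0092, limma, adjusted p = 0.217). Usp46 was detected on 26 of the 32 arrays, 20 of 20 from ethanol-treated mice but only 6 of 12 from controls. It thus met the detection filter largely through the group where it was higher. The brighter probe of Usp8 was detected on 31 arrays, 20 of 20 and 11 of 12, so both genes lie near the limit of detection.

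**Figure D2:**
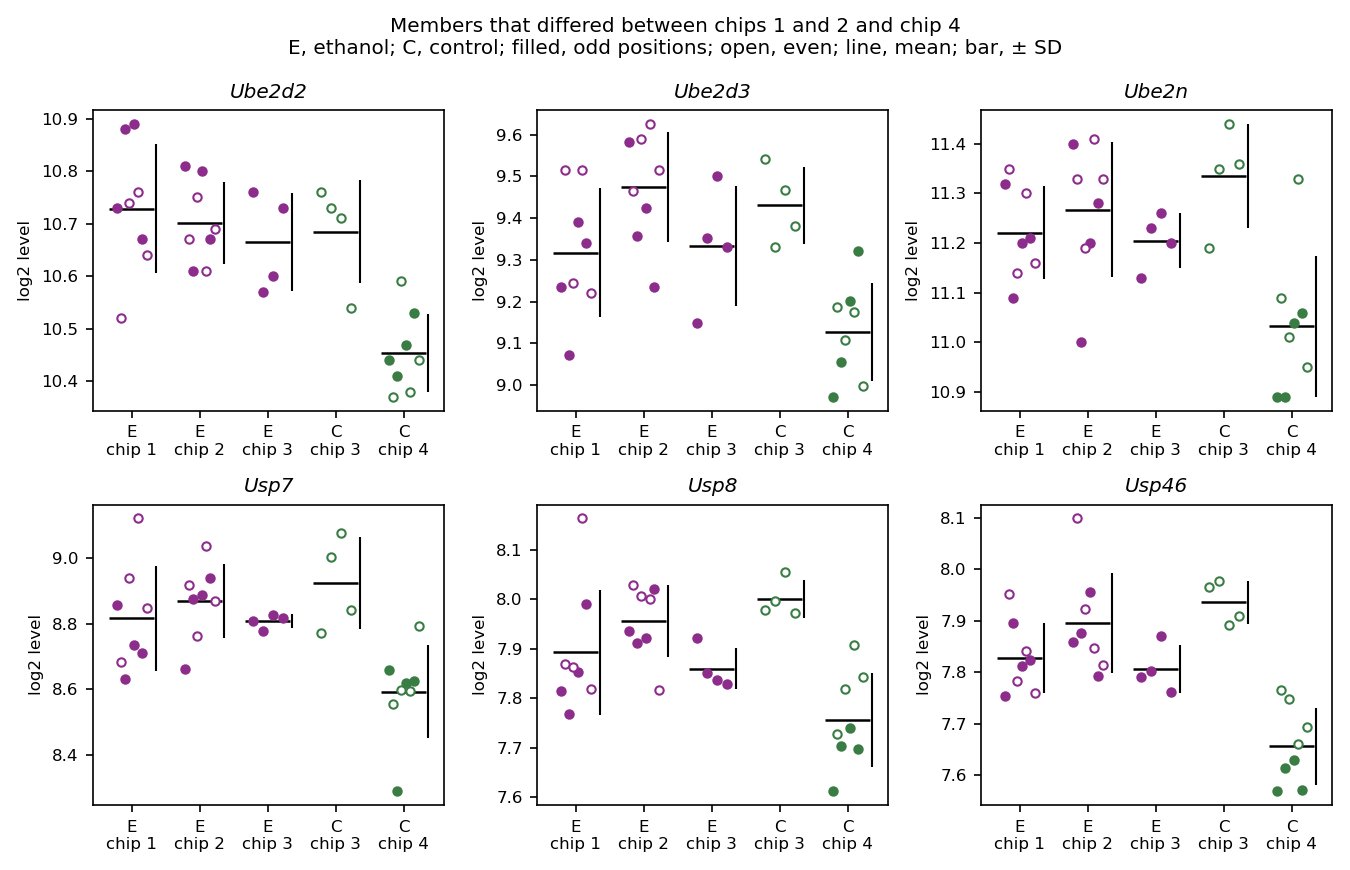
Log2 level of Ube2d2, Ube2d3, Ube2n, Usp7, Usp8 and Usp46 (brightest probe of each) on every array, by chip and group (E, ethanol, purple, n = 8, 8 and 4; C, control, green, n = 4 and 8), with odd positions filled and even positions open, the mean as a line and the SD as a bar. In each gene the mean of the controls of chip 3 lies above that of the ethanol-treated mice of chip 3 and above that of the controls of chip 4.

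Controls of chip 3 and controls of chip 4 carry the same treatment label and were compared as well. Most of the genes below were picked for a difference from chip 4, and the same 8 arrays of chip 4 enter here, so both comparisons are not independent. At an FDR below 1%, 8 member probes differed, where 6.37% of all probes did. Higher on chip 3 were Ube2d2 (0.23, SE 0.060), Ube2d3 (0.30, SE 0.078), Ube2n (0.30, SE 0.071), Usp7 (0.33, SE 0.078), Usp8 (0.24, SE 0.058), Usp46 (0.28, SE 0.051) and Usp22 (0.39, SE 0.097), with adjusted p-values by limma from 0.000447 to 0.00938. Lower was the middle probe of Ube2f (-0.24, SE 0.056, limma, adjusted p = 0.00309). The controls of chip 3 lay at even positions and those of chip 4 at both, so position differed here as well. Chip 1 against chip 2, both with ethanol, gave 0 member probes at an FDR below 1% by limma (10 had an unadjusted p below 0.05), where 0.216% of all probes passed.

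Over the 32 arrays the brightest probes of Ube2d2, Ube2d3, Ube2n, Usp7, Usp8 and Usp46 correlated with each other at r = 0.373 to 0.725, with a median of 0.585 over the 15 pairs. After each group on each chip was centred on its own mean, the same 15 correlations ranged from -0.244 to 0.505 with a median of 0.0708. These genes were picked for differing between chips and their points share arrays, so the values describe how much of their common movement lay between chips and groups.

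On chip 3, the 1 chip with both groups, no member passed an FDR of 1% by limma (7 had an unadjusted p below 0.05), where 0.206% of all probes did. When only the 8 arrays of that chip were fitted, Usp22 (adjusted p = 0.00229) and Usp5 (adjusted p = 0.0053) passed it by limma, and 323 probes in all in place of 21. At the wider threshold, 3 USP probes and 0 E2 probes were called by limma (2 of 27 E2 probes had an unadjusted p below 0.05), all lower in ethanol-treated mice, where 6.58% of all probes were called. They were Usp22, Usp19 and Usp5. None of the 3 was called when arrays were scaled to 1 median. With only the 8 arrays of chip 3 fitted, 2 E2 probes were called as well at the wider threshold, where 1740 probes in all were. These were Ube2o, higher by 0.29 (limma, adjusted p = 0.0244), and Ube2e3, lower by -0.17 (limma, adjusted p = 0.0795). Array weights added Ube2o, higher (limma, adjusted p = 0.0405), and Usp30 and Usp8, both lower (limma, adjusted p = 0.0986 and 0.0756).

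Usp22, the deubiquitinase of the SAGA complex that removes ubiquitin from histones H2A and H2B, had levels of 11, 11.11, 10.89 and 10.95 in the ethanol-treated mice of chip 3. Its 4 controls there were at 11.35, 11.27, 11.57 and 11.62, so the groups did not overlap. The difference was -0.46 (SE 0.11, limma, adjusted p = 0.0213). On the other chips Usp22 ranged from 10.79 to 11.5 in ethanol-treated mice and from 10.87 to 11.25 in controls, with a difference of 0.12 (SE 0.069, limma, adjusted p = 0.186). The controls of chip 3 lay above all controls of chip 4, whereas the 4 ethanol-treated mice of chip 3 lay within their range.

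Usp19 had levels of 8.29, 8.27, 8.32 and 8.27 in the ethanol-treated mice of chip 3, all below its 4 controls at 8.33, 8.72, 8.56 and 8.65. The lowest control lay just above the highest ethanol-treated mouse, and the controls spread more widely than the ethanol-treated mice. The difference was -0.28 (SE 0.071, limma, adjusted p = 0.0269), against -0.054 between chips 1 and 2 and chip 4 (SE 0.044, limma, adjusted p = 0.381).

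Usp5 had levels of 8.65, 8.64, 8.64 and 8.61 in the ethanol-treated mice of chip 3 and of 8.86, 9.07, 8.88 and 8.95 in its controls, without overlap. The difference was -0.30 (SE 0.087, limma, adjusted p = 0.0466), against -0.039 between chips 1 and 2 and chip 4 (SE 0.053, limma, adjusted p = 0.63). On chips 1, 2 and 4 the mean of Usp5 was 8.688 at odd and 8.816 at even positions. With chip as a block and position as a covariate, the differences were -0.386 (Usp22), -0.254 (Usp19) and -0.177 (Usp5). Their adjusted p-values by limma were 0.26, 0.254 and 0.546. Usp14 had the same direction on chip 3, at -0.12 (SE 0.088, limma, adjusted p = 0.453), as had Usp30, at -0.13 (SE 0.070, limma, adjusted p = 0.312).

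**Figure D3:**
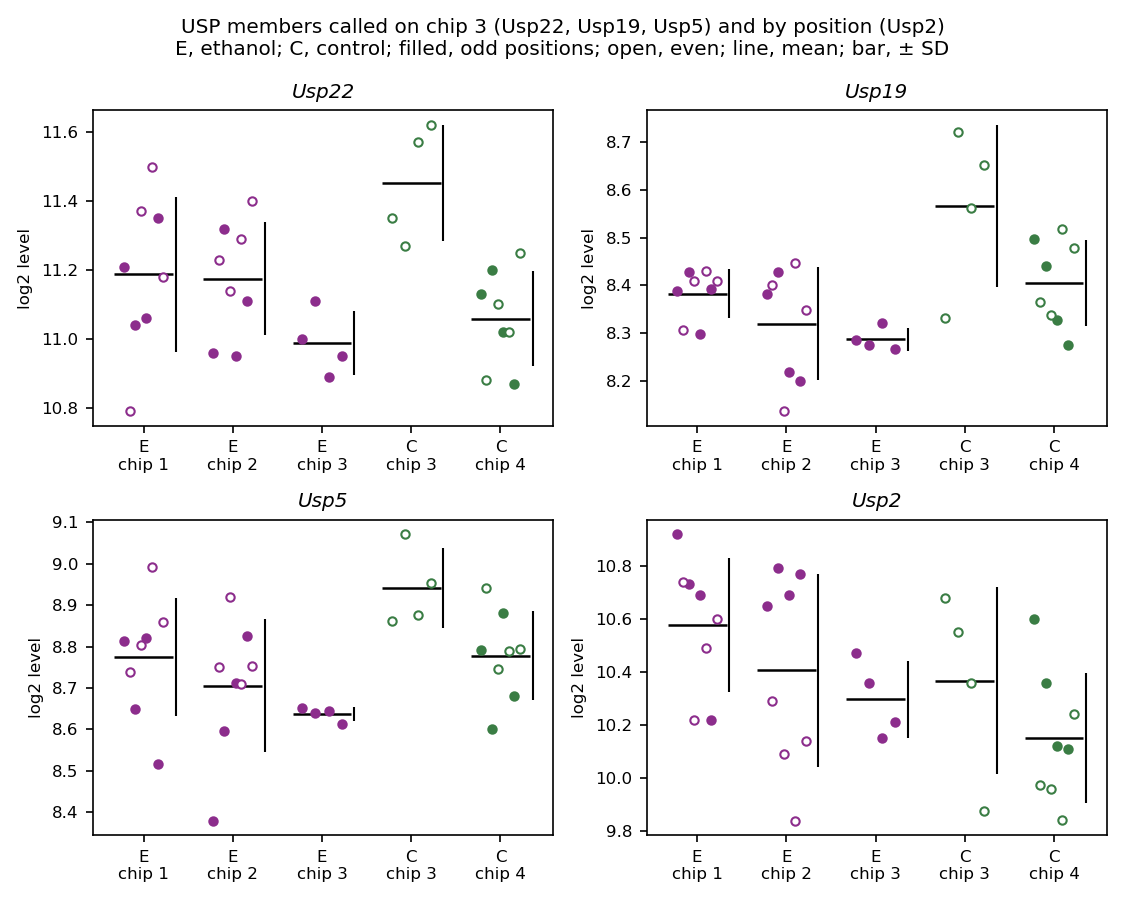
Log2 level of Usp22, Usp19, Usp5 and Usp2 on every array, by chip and group (E, ethanol, purple; C, control, green), with odd positions filled and even positions open, the mean as a line and the SD as a bar. On chip 3 the ethanol-treated mice lie below all controls in Usp22, Usp19 and Usp5, and on chips 1, 2 and 4 most filled points of Usp2 lie above the open ones.

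Over all 39 USP probes the median difference on chip 3 was -0.054, with 12 above 0, while over the 27 E2 probes it was 0.020, with 15 above 0, and over all probes tested it was -0.00048. Without Usp6nl, Usp39 and Usp52 the USP median was -0.069, with 9 of 30 above 0. By role the lowest medians were those of the free chain and proteasome enzymes (-0.21, both probes below 0), the chromatin enzymes (-0.11, 6 of 6 below 0) and the WDR48 partners (-0.11, 3 of 3 below 0). The enzymes of endosomes, receptors and membranes had a median of -0.079 (1 of 7 above 0). The 12 USP probes given no role had 0.031 (8 above 0). Between chips 1 and 2 and chip 4 the USP median was 0.022, with 27 of 39 above 0, and 0.026, with 20 of 30 above 0, without those 3 genes.

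Markers of neighbouring tissue and of other cell types differed between the groups, and so between odd and even positions, on the same 8 arrays. The olfactory bulb list had 4 of its 8 genes tested, with Eomes, Tbx21, Cdhr1 and Omp below the detection filter or not on the array, and its mean level was 9.02 to 9.19 in the ethanol-treated mice of chip 3 against 8.54 to 8.82 in the controls (median difference 0.52). The oligodendrocyte list, all 10 genes tested, had a mean level of 9.42 to 9.62 against 9.55 to 10.14 (median difference -0.31), and 5 of its 17 probes were lower at an FDR below 10%. The astrocyte list, 9 of 10 genes tested, had a mean level of 9.951 to 9.979 in the ethanol-treated mice of chip 3 against 9.812 to 9.869 in its controls, without overlap, and 1 of its 10 probes was higher at the wider threshold. The endothelial list, 7 of 8 genes tested, was at 9.268 to 9.337 against 9.114 to 9.213, also without overlap, and 2 of its 7 probes were higher. The mean level of the neuronal list was 12.19 to 12.21 against 12.17 to 12.23, but its probes moved both ways. Of its 10 probes, 1 was higher and 2 were lower at the wider threshold, and 5 had an unadjusted p below 0.05 by limma. The microglia, blood and striatum lists gave 0 calls there by limma (1 of 10, 0 of 2 and 0 of 5 probes had an unadjusted p below 0.05). The part of these lists in the differences of Usp22, Usp19 and Usp5 was not tested. Leaving out control mouse C54 reduced the calls on chip 3 from 3 to 1, which was Usp22 (-0.53, limma, adjusted p = 0.0283).

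Whether the ethanol difference itself differed between chip 3 and the other chips was tested as the difference of both contrasts, which share no array. At an FDR below 1%, 2 member probes differed, where 3.49% of all probes did, and at an FDR below 10% with a 1.1-fold change 15 did, where 16.3% of all probes did. The 2 were Usp22, with an ethanol difference on chip 3 minus that on the other chips of -0.59 (SE 0.13, limma, adjusted p = 0.00419), and Usp46, with -0.34 (SE 0.070, limma, adjusted p = 0.00231). Ube2n (-0.34), Ube2d3 (-0.37), Ube2d2 (-0.28), Usp7 (-0.37) and Usp8 (-0.31) had adjusted p-values by limma from 0.0109 to 0.0254. Ube2f differed the other way (0.29, SE 0.086, limma, adjusted p = 0.0253), lower in ethanol-treated mice between chips 1 and 2 and chip 4 (-0.20) and higher on chip 3 (0.097). Of the 66 member probes 30 (45.5%) had the same sign in both sets of arrays, 14 of 27 for E2 and 16 of 39 for USP, and of all probes 50.9% did.

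**Figure D4:**
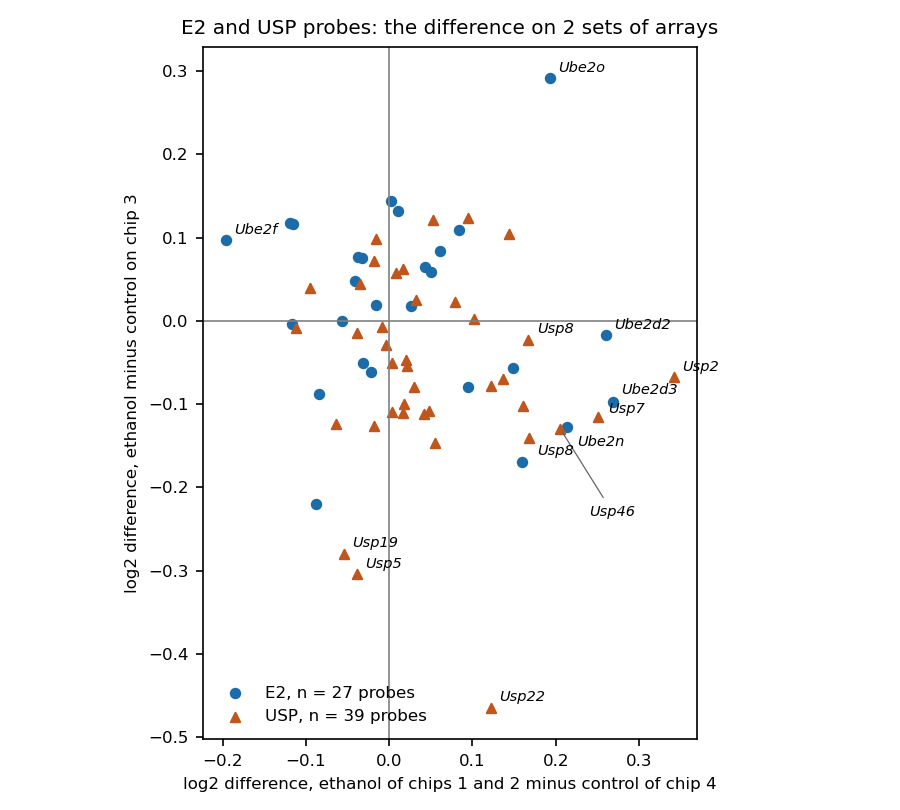
Difference of log2 level, ethanol minus control, on chip 3 (vertical axis) against the difference between chips 1 and 2 and chip 4 (horizontal axis) for the 27 E2 probes (circles) and 39 USP probes (triangles), both axes on the same scale. Ube2d2, Ube2d3, Ube2n, Usp7, Usp8 and Usp46 lie at the right and below 0 on the vertical axis, and Usp22, Usp19 and Usp5 lie lowest.

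Of the 5 members called at the wider threshold over all arrays, Ube2o and Usp52 had the same direction on both sets of arrays. Usp52 gave 0.10 on chip 3 and 0.14 between chips 1 and 2 and chip 4 with its called probe, while its other probes gave 0.032 and -0.0033 over all arrays. The called probe of Usp52 also differed by position on chips 1, 2 and 4, by 0.14 between odd and even arrays (limma, adjusted p = 0.0537). The levels of Ube2o on chip 3 were 12.28, 12.26, 12.04 and 11.94 in ethanol-treated mice and 11.93, 11.84, 11.79 and 11.79 in controls, without overlap. The difference was 0.29 on chip 3 (SE 0.12, limma, adjusted p = 0.16) and 0.19 between chips 1 and 2 and chip 4 (SE 0.072, limma, adjusted p = 0.0432), neither past the 1% threshold. Ube2o also differed by position where treatment did not vary, by 0.22 between odd and even arrays of chips 1, 2 and 4 (SE 0.059, limma, adjusted p = 0.0165), in the direction that ethanol has on chip 3.

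Position was followed further on the 24 arrays of chips 1, 2 and 4, on which odd and even positions had the same treatment within a chip. At an FDR below 1%, 3 member probes differed, where 3.72% of all probes did. Usp2 was higher at odd positions (10.11 to 10.92, median 10.67) than at even positions (9.84 to 10.74, median 10.18), by 0.35 (SE 0.081, limma, adjusted p = 0.00626). A probe of Ube2l3 was higher at odd positions by 0.13 (SE 0.032, limma, adjusted p = 0.00945), and the brightest probe of Usp39 was lower by -0.19 (SE 0.042, limma, adjusted p = 0.00385). The olfactory bulb list was higher at odd positions as well, with a median difference of 0.32. The oligodendrocyte list was lower there, with a median difference of -0.14 and 2 of its 17 probes lower at the wider threshold. The part of both lists in these differences was not tested. Usp2 differed by 0.34 between chips 1 and 2 and chip 4 (SE 0.11, limma, adjusted p = 0.0194) and by -0.068 on chip 3 (SE 0.18, limma, adjusted p = 0.877), where its controls spread from 9.88 to 10.68. With chip as a block and position as a covariate, which uses chip 3 for treatment and the other chips for position, 0 member probes passed an FDR of 1% by limma (5 had an unadjusted p below 0.05), where 0.0196% of all probes did.

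How far 1 probe speaks for its gene could be read from the 14 member genes with several tested probes. Over their 27 pairs of probes the correlation across 32 arrays had a median of 0.161 and ranged from -0.203 (Usp4) to 0.639 (2 probes of Ube2g1 that share no bases), with 19 pairs below 0.3. The 5 pairs that share bases lay between 0.312 (Usp39) and 0.589 (Ube2f). The 3 Ube2f probes gave 0.048, -0.037 and -0.11 over all arrays, and only the brightest was called between chips 1 and 2 and chip 4 (-0.20, SE 0.045, limma, adjusted p = 0.00144), while its overlapping neighbour gave -0.11 (SE 0.039, limma, adjusted p = 0.0271) and the third probe 0.043. Ube2d2, Ube2d3, Usp7, Usp46, Usp22, Usp19 and Usp5 were each read by 1 tested probe.

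**Figure D5:**
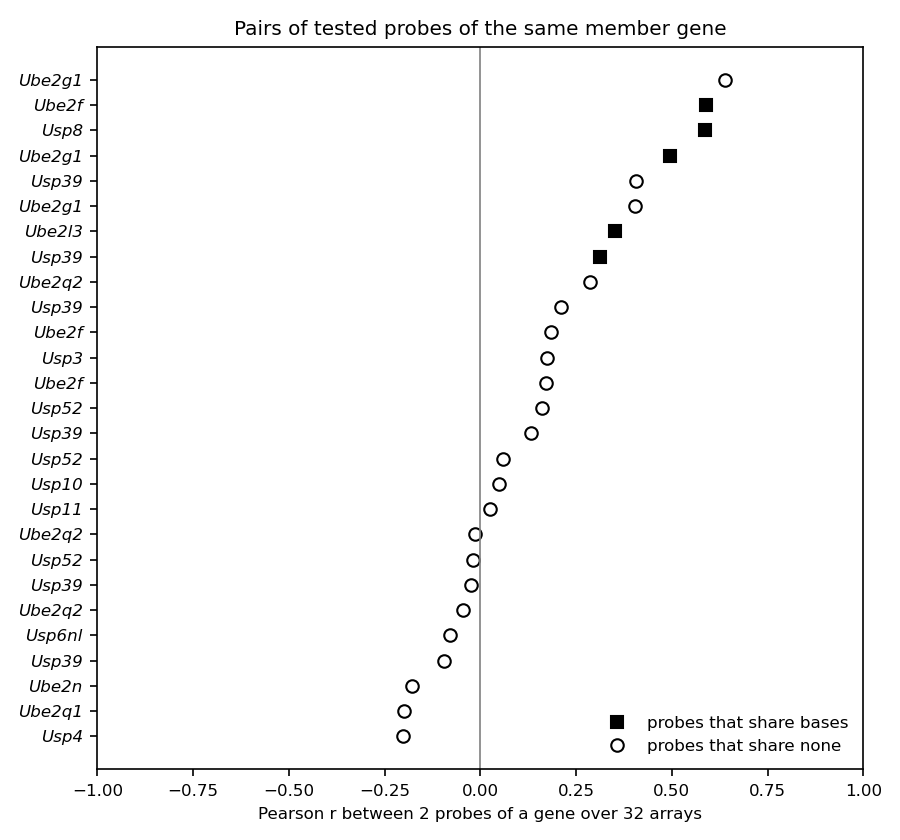
Pearson correlation over 32 arrays between both probes of each of 27 pairs of tested probes of the same E2 or USP gene, with filled squares for pairs that share bases and open circles for pairs that share none. The 5 filled squares lie between 0.312 and 0.589, and 19 of the 27 pairs lie below 0.3.

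The other genes of the pathway, taken from lists written for it, were set at an FDR below 1% over all arrays beside the 8.25% of all probes called there. None of 9 probes of 7 E1 genes was called by limma at that threshold (2 had an unadjusted p below 0.05). Of 41 probes of 32 E3 ligase genes, 1 was higher and 1 lower. Fbxw7, the substrate adaptor of an SCF ligase, was at 8.62 ± 0.20 (SD, n = 20) in ethanol-treated mice and at 8.34 ± 0.16 (n = 12) in controls, and Nedd4l, a HECT ligase of ion channels, at 9.61 ± 0.13 and 9.81 ± 0.13. Of 30 probes of 23 deubiquitinase genes of other families, 1 was higher and 1 lower. Mysm1, which acts on histone H2A, was at 9.49 ± 0.27 and 9.09 ± 0.19, and Mpnd, a metalloprotease of the same class, at 9.65 ± 0.17 and 9.87 ± 0.11. Lower were also Ubqln4, which carries ubiquitinated proteins to the proteasome, at 9.38 ± 0.19 and 9.68 ± 0.17, among 11 probes of 7 genes that work with members, and Rps27a, which encodes ubiquitin fused to a ribosomal protein, at 9.90 ± 0.13 and 10.06 ± 0.048, among 9 probes of 6 ubiquitin and modifier genes. Adjusted p-values of these 6 by limma ranged from 0.000972 to 0.00566.

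On chip 3, where Usp22, Usp19 and Usp5 were lower, the calls from the same lists at the wider threshold included Uba1 and Cyld, named here after their values were seen. Uba1, the main E1 enzyme, was lower in ethanol-treated mice by -0.42 (SE 0.13, limma, adjusted p = 0.0726), while Cyld, which cuts K63-linked and linear chains, was higher by 0.22 (SE 0.068, limma, adjusted p = 0.0726). None of the 41 E3 probes was called there by limma (6 had an unadjusted p below 0.05).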

How the data were processed

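The authors deposited the signals without normalization, as the mean bead intensity of each probe on each of 32 arrays on a linear scale, beside the number of beads and the standard error over beads, and with a detection p-value as deposited against negative control beads. The bead summary software and any background step are not given in the sources used here, and the labels name lumi and limma without versions. All columns were matched to mice through the labels, with 0 columns left over.

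The signals were variance-stabilized after the method of lumi, rewritten from the bead standard errors, and quantile-normalized in R 4.3.3 with the R package data.table (version 1.17.8). Tested were the 10187 of 25697 probes that the detection p-values placed under 0.01 on 24 or more of 32 arrays. Groups were compared by limma 3.58.1 with Benjamini-Hochberg adjustment over all probes tested. The comparison of all arrays had no covariate, as in the study's methods, and those by chip came from 1 fit with 5 group-by-chip means. The steps were tested on simulated data with known changes. Figures were made in Python 3.11.15 with matplotlib 3.10.9, numpy 2.4.6 and pandas 2.3.3.

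The members, lists, thresholds and named genes were chosen with earlier results of these data known. Named by rule were members called at an FDR below 1% and a list of members of known function, each by its brightest tested probe. Ube2o, Ube2f, Usp2, Usp19, Usp39, Usp52 and other members outside that list were named after their values were seen. RefSeq names are those of the GRCm38.p6 annotation. As alternatives, the log2 scale replaced the transform, normexp (offset 16) corrected the background, median scaling replaced quantiles, the filter was dropped or tightened to detection on every array, chip or position entered the fit, arrays were weighted, and arrays were left out. The number of arrays on chip 3 limits the precision there. A few genes are not reported here.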

Additional observations from a re-analysis of the deposited data

Results flagged for a closer look

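For 8 of the 18 named members with a tested probe, the ethanol difference on chip 3 differed from that between chips 1 and 2 and chip 4 by limma at an adjusted p below 0.05. The 18 are a picked list, and Ube2o, Ube2f, Usp2 and Usp19 were named after their values were seen. The share of all probes below 0.05 was not counted, so the 8 of 18 cannot be set against the array. Of all 66 member probes, 2 (3.03%) passed an FDR of 1% in this contrast, as did 3.49% of all probes. At the wider threshold 15 (22.7%) passed, against 16.3% of all probes. The difference on chip 3 minus the other was -0.277 for Ube2d2 (adjusted p = 0.0254), -0.366 for Ube2d3 (adjusted p = 0.0225), -0.342 for Ube2n (adjusted p = 0.0194) and 0.293 for Ube2f (adjusted p = 0.0253). Among the USP genes it was -0.587 for Usp22 (adjusted p = 0.00419), -0.335 for Usp46 (adjusted p = 0.00231), -0.366 for Usp7 (adjusted p = 0.0222) and -0.309 for Usp8 (adjusted p = 0.0109). In each of the 8 but Ube2f the ethanol difference was the lower one on chip 3.

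Single arrays stood apart from the rest of their group in 5 of 90 sets, each the arrays of 1 group on 1 chip for 1 of the 18 members, where chance gives about 1 in 20. Ube2b was low in control mouse C57 of chip 4 (11.63, the next at 11.89), and Usp7 was low in control mouse C59 of that chip (8.289, the next at 8.557). Ube2n was high in control mouse C65 of chip 4 (11.33, the next at 11.09). On chip 3, Ube2l3 was low in control mouse C55 (11.33, the next at 11.45) and Usp14 was high in control mouse C54 (8.557, the next at 8.361). All 5 arrays were controls, and no mouse appears more than once.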

How the results depend on the processing

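No paired analysis was possible because the labels give ethanol-treated mice and controls no shared replicate numbers. Of the values recomputed for counts and medians, 57 were counts within 1.5 times of the reported one or medians that moved by less than the spread between mice. The median of the USP probes, 0.00167, was below 0 with chip as a fixed block (-0.0544), with position added (-0.0121), with chip as a random block (-0.00199) and among probes detected on all arrays (-0.000386), so it has no settled sign. The 1 E2 call over all arrays (Ube2d2) fell to 0 under median scaling (0.246, adjusted p = 0.0533), chip as a random block (0.132, adjusted p = 0.109), chip as a fixed block, and chip as a fixed block with position, and rose to 2 with array weights, which added Ube2o (0.218, adjusted p = 0.00889). The 0 USP calls rose to 1 when all probes of the array were tested, a dimmer probe of Usp2 (0.166, adjusted p = 0.00318) detected on 16 of 20 ethanol and 1 of 12 control arrays. The 3 calls on chip 3 became 0 under median scaling, 6 with array weights, and 5 when, as chosen after seeing the data, only its 8 arrays were fitted (at an FDR of 1%, 2 in place of 0), and ranged from 1 to 3 when 1 array of the chip was left out, with 1 left without control mouse C54. The 8 calls between chips 1 and 2 and chip 4 fell to 5 among probes detected on all arrays, since the probes of Usp8 and Usp46 were then not tested. Leaving out Usp6nl, Usp39 and Usp52, also chosen after seeing the data, left 0 USP calls at an FDR of 1% by limma (8 of 30 with an unadjusted p below 0.05) and a median of 0.00741.

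Single members turned direction in 18 values. Median scaling, which moved the median of all probes from -0.0032 to 0.0425, turned Ube2k to 0.0278 and Usp22 to 0.0136. A fixed block for chip, under which chip 3 alone informs on treatment, gave -0.0171 (Ube2d2), -0.0974 (Ube2d3), 0.0971 (Ube2f), -0.128 (Ube2n), -0.0678 (Usp2), -0.13 (Usp46), -0.115 (Usp7) and -0.141 (Usp8). With position as well they were -0.0807 (Ube2d2), -0.0165 (Ube2d3), 0.163 (Ube2f), -0.0435 (Ube2n), -0.418 (Usp2), -0.0683 (Usp46), -0.0121 (Usp7) and -0.0662 (Usp8). The cause of the other changes was not tested. Usp46 was detected on 26 of 32 arrays (20 of 20 ethanol and 6 of 12 control arrays), and chip 3 had 4 arrays of each group, which limits the precision of both.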
